A study of Mus musculus with 12 samples.

Results

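The comparison described here sets tumor-infiltrating CD8 T cells of TrIP knockout (KO) mice against those of wild-type (WT) mice. It holds 6 of the study's 12 libraries, chosen by their tissue and genotype labels: KO tumor replicates 1, 2 and 3 and WT tumor replicates 1, 3 and 4. All mice carried MC38, a colon carcinoma line of mouse origin, and cells were taken 10 days after its injection. From each tumor, CD8 T cells that bound a tetramer of Rpl18 were sorted, so the cells of both genotypes were selected for the same antigen specificity, and polyA RNA was sequenced. The other 6 libraries are cells of the same sort from the tumor-draining lymph node (TDLN), 3 per genotype. The knockout is described as specific to CD8 cells. The Cre driver, the exons deleted, and the strain, age and sex of the mice are not stated in the sources used, nor is it stated that each library is 1 mouse. Of 26962 genes in the deposited table, 16426 had a mean of at least 24.9 normalized counts, or 1 CPM of the mean column total, over the tumor libraries and were tested.

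TrIP, the product of Pik3ip1, is a transmembrane protein that binds the catalytic subunit of phosphoinositide 3-kinase (PI3K) and restrains it. In T cells PI3K is activated downstream of the antigen receptor, CD28 and cytokine receptors, and its lipid product recruits AKT. AKT keeps FOXO transcription factors out of the nucleus and raises mTOR activity, which turns on glycolysis and, through SREBP factors, the synthesis of sterols and fatty acids. TrIP is known as a brake on T-cell activation that is lost from the cell surface once the receptor is engaged.

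The distances between tumor libraries of 1 genotype and of different genotypes covered much the same range. Each held 18.3 M to 36.9 M estimated reads in genes, with column totals of 25321838 to 26490590 normalized counts. The root mean square log2 distance over the tested genes was 0.858 to 0.986 between WT libraries, 0.683 to 0.775 between KO libraries and 0.696 to 0.949 between a WT and a KO library. WT tumor 3 stood apart on the leading principal component, which held 33.0% of the variance, at -81.8 against -3.5 to 34.8 in the others. Xist, the X-inactivation transcript, stood at 3040 normalized counts in WT tumor 3 and 2485 in KO tumor 3, against 0 to 2.54 in the remaining tumor libraries. The Y-linked Ddx3y was present in both, at 909.2 and 1331, against 4939 to 6072 elsewhere. In TDLN, replicate 3 of each genotype also held Xist (3552 and 3845) and had Ddx3y at 0. Each genotype holds 1 such tumor library, and replicate 3 is such a library in all 4 groups. Values without the 2 tumor libraries are given for some of the lists.

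**Figure D1:**
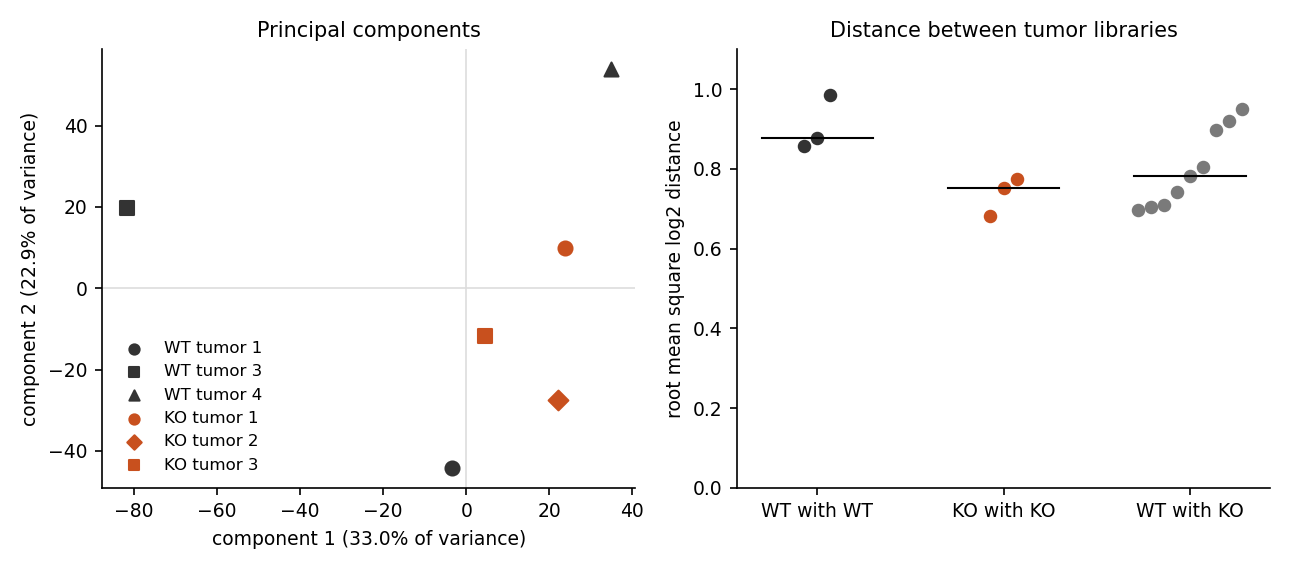
Left, the first 2 principal components of log2 values over the tested genes, 1 point per tumor library, with the share of variance on each axis. Right, the root mean square log2 distance for each pair of libraries, with the median as a line (0.877 WT with WT, 0.751 KO with KO, 0.781 WT with KO). WT tumor 3 lies far to the left, and the mixed pairs lie within the range of the pairs within a genotype.

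No gene passed the threshold between KO and WT tumor cells. limma called 0 of 16426 genes at an adjusted p of 0.05 (0%), and the smallest adjusted p was 0.983. At an unadjusted p under 0.05 there were 475 genes (2.89%), of which 293 were higher in KO (1.78%) and 182 lower (1.11%). The split by direction moved with the scaling. It was 352 higher and 139 lower with columns rescaled to a common total, and 244 and 232 with quantile normalization. In 685 genes every KO library lay above every WT library (4.17%), and in 537 every KO library lay below (3.27%). The log2 difference, KO minus WT, had a median of 0.023 over all genes and lay between -0.63 and 0.803 for the middle 90% of them. All values of single genes below are therefore descriptions of 6 libraries, each with an adjusted p of 0.983 or more by limma, and p-values measure the spread between libraries that may or may not be separate mice. Since cells were measured in bulk, fewer cells of a type and less RNA per cell cannot be told apart.

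Pik3ip1 (ENSMUSG00000034614), the gene targeted in the knockout, stood at 179.1, 118.8 and 137.7 normalized counts in WT tumor 1, 3 and 4 and at 173.3, 95.2 and 55.5 in KO tumor 1, 2 and 3. The groups overlap, with KO tumor 1 just under the highest WT library and KO tumor 3 the lowest of the 6. The log2 difference was -0.44 (SE 0.41, 95% interval -1.38 to 0.50, limma adjusted p = 0.983). Without KO tumor 3 it was -0.13 and without KO tumor 1 it was -0.78. The whole-gene value does not check a deletion of some exons, so KO is used as the libraries' label. Of 31 tested genes around Pik3ip1 on the same chromosome, 6 before and 25 after it, 19 had a log2 difference above 0 (52.6% of all genes did), with a median of 0.16 (0.023 over all genes). In 1 of them, Tbc1d10a, every KO library lay above every WT library (3.2%, against 4.17% of all genes).

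The gene with the smallest p was Alox8, an arachidonate lipoxygenase, higher in KO. Alox8 (ENSMUSG00000020891) stood at 384.4, 339.9 and 237.3 normalized counts in the WT libraries and at 1891, 973.1 and 1654 in the KO libraries. Every KO library was far above every WT library. The log2 difference was 2.12 (SE 0.32, 95% interval 1.39 to 2.85, unadjusted p = 0.000156, limma adjusted p = 0.983), and it stayed between 1.93 and 2.40 with any 1 library left out. Klra5, a Ly49 receptor of NK cells that some activated CD8 T cells carry, stood at 102.0, 162.8 and 91.1 in WT and 388.6, 815.8 and 370.1 in KO. Its groups were also well apart, with KO tumor 2 the highest, and the log2 difference was 1.88 (SE 0.39, limma adjusted p = 0.983). In TDLN, Klra5 was listed at 0 in both group means, while Alox8 stood at 20.9 and 10.5 normalized counts.

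Several genes higher in KO act in growth, iron supply or signaling. Tfrc, the transferrin receptor that brings iron into dividing cells, stood at 1994, 2834 and 2410 normalized counts in the WT libraries and 5722, 3695 and 4511 in KO. Sgk1, a kinase that is switched on by PI3K signals and whose transcript answers to glucocorticoids and salt, stood at 1600, 1108 and 1742 in WT and 2556, 2653 and 3197 in KO. Abl2, a non-receptor tyrosine kinase that acts on the actin cytoskeleton, stood at 183.4, 207.9 and 244.7 in WT and 771.6, 447.9 and 492.1 in KO. In all 3 genes the groups did not overlap, with KO tumor 1 highest for Tfrc and Abl2 and KO tumor 3 highest for Sgk1. The log2 differences were 0.93 for Tfrc (SE 0.23), 0.93 for Sgk1 (SE 0.23) and 1.30 for Abl2 (SE 0.30), each with limma adjusted p = 0.983. Acpp, the prostatic acid phosphatase, stood at 65.2 ± 18.4 in WT and 244.8 ± 62.5 in KO tumor (SD, n = 3), and Polq, the DNA polymerase theta of end joining repair, at 49.6 ± 38.6 and 247.3 ± 118.4. In TDLN the WT and KO means were 1850 and 1882 for Tfrc, 1396 and 1362 for Sgk1, and 194.8 and 282.7 for Abl2, and the difference between tissues had limma adjusted p = 1 for each.

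Some further genes with KO above WT had low values in WT tumor. Fam217b stood at 17.3 ± 14.6 in WT and 133.2 ± 45.5 in KO, in normalized counts (SD, n = 3). Cnr2, the cannabinoid receptor of immune cells, stood at 0.8 ± 0.7 and 70.6 ± 35.8, and Zfp366, a zinc finger regulator known from dendritic cells, at 1.3 ± 1.7 and 60.6 ± 29.8. Ly6k was at 0 in WT tumor 1 and 3 and at 76 in WT tumor 4, against 192.4 to 382.5 in KO. Hecw2, a ubiquitin ligase, stood at 2.9 to 17.5 in WT and 45.7 to 105.4 in KO. The added pseudocount of 24.9 understates folds at such levels: the log2 difference of Cnr2 was 1.82 with it and 3.33 with a pseudocount of 0.25 CPM. Among the genes of unadjusted p under 0.05 with the biggest differences, Gzmc, a granzyme of strongly stimulated killer cells, stood at 1226, 149.8 and 1194 in WT and at 1258, 7133 and 2622 in KO. Its KO tumor 1 value was almost level with WT tumor 1 and 4, and the log2 difference of 2.17 (SE 0.86) dropped to 1.23 without WT tumor 3. Cxcl2, a neutrophil-attracting chemokine, stood at 738.8, 159.9 and 128.2 in WT and 810, 3072 and 1288 in KO, with WT tumor 1 close to KO tumor 1. F13a1, a coagulation factor chain made by macrophages, stood at 141.2, 1.4 and 3.2 in WT and 187.9, 190.3 and 237.1 in KO. Macrophage markers, given at the end, were likewise higher in the KO group, and their part in these genes was not tested.

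**Figure D2:**
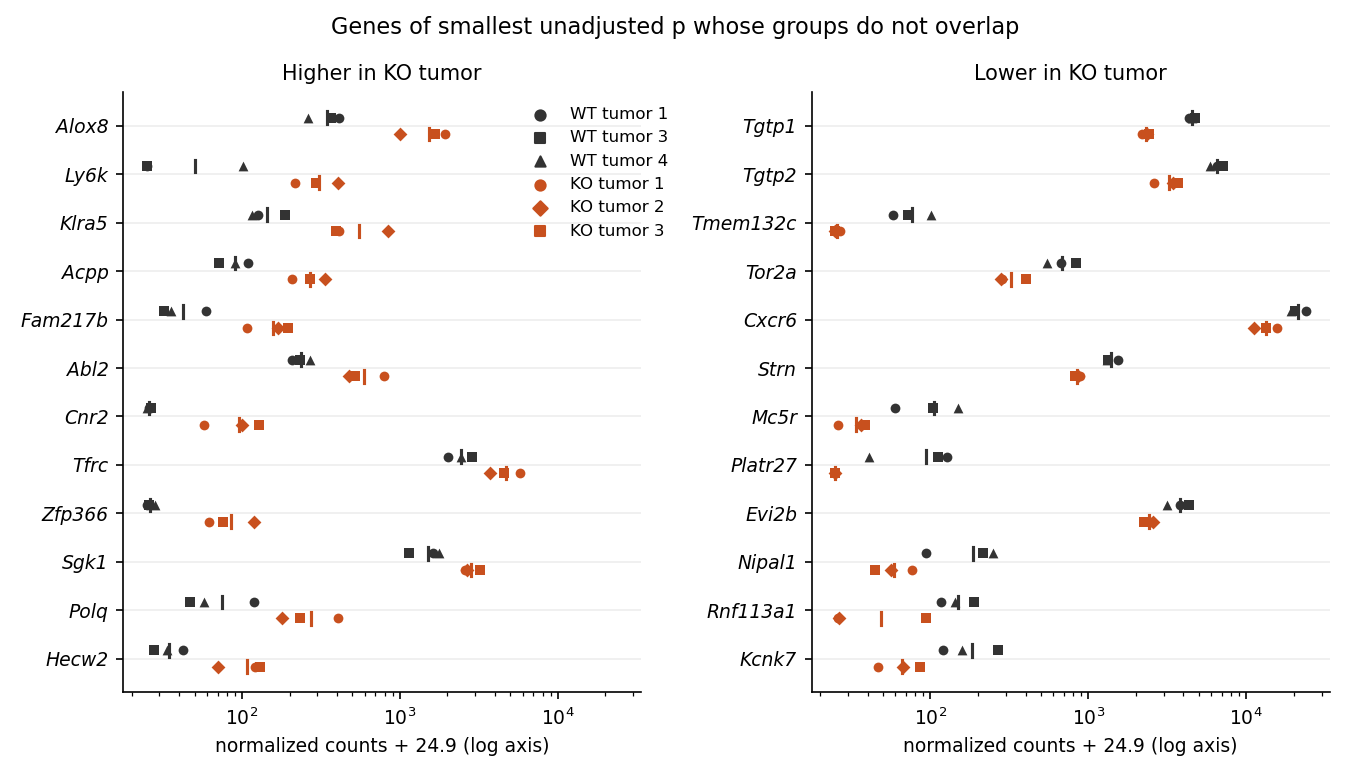
Values of the 12 genes in each direction with the smallest unadjusted p among genes whose groups do not overlap, 1 symbol per tumor library, on a log axis of normalized counts plus the pseudocount of 24.9; short lines mark group means. Alox8 has its lowest KO library at 973.1 normalized counts against a highest WT library of 384.4, while Tgtp1 and Tgtp2 have tight groups with KO below WT.

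The genes with the smallest p among those lower in KO were Tgtp1 and Tgtp2, the T-cell-specific GTPases, which interferon gamma induces and which act against pathogens inside vacuoles. Tgtp1 (ENSMUSG00000078922) stood at 4329, 4694 and 4529 normalized counts in WT tumor and 2149, 2337 and 2395 in KO tumor. Tgtp2 (ENSMUSG00000078921) stood at 6487, 7078 and 5832 in WT and 2574, 3408 and 3658 in KO. Each gene's 3 libraries lay close together within a genotype, and every KO library was far below every WT library. The log2 differences were -0.97 for Tgtp1 (SE 0.16, 95% interval -1.34 to -0.60) and -1.01 for Tgtp2 (SE 0.19, 95% interval -1.46 to -0.57), each with limma adjusted p = 0.983. Over all alternatives they ran from -1.003 to -0.918 for Tgtp1 and from -1.14 to -0.86 for Tgtp2. The pair are near-identical copies, so reads can be assigned to either, and they count as 1 observation. In TDLN the group means were 3821 (WT) and 3255 (KO) for Tgtp1, and the difference between tissues in the KO minus WT value was -1.09 (SE 0.61, limma adjusted p = 1). On the log2 scale the TDLN difference was therefore slightly in the other direction, KO higher, unlike those group means.

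The upstream sequences of the pair are shown because they hold letter matches to 2 motifs of interferon response, and the pair had the smallest p among genes lower in KO. They are the 250 bases before the annotated start, from RefSeq on GRCm38.p6, minus strand, at chr11:48992247-48992496 for Tgtp1 and chr11:49064213-49064462 for Tgtp2. Capitals mark the 2 motifs searched on both strands, the interferon-stimulated response element, searched as GAAA followed after 2 bases by GAAA, and the gamma-activated site, searched as TTCNNNGAA, which do not overlap here.
Tgtp1: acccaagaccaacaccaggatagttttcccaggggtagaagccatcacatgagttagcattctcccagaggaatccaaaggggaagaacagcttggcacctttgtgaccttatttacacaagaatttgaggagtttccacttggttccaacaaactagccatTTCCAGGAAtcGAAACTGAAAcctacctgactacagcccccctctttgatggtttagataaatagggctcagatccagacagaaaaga
Tgtp2: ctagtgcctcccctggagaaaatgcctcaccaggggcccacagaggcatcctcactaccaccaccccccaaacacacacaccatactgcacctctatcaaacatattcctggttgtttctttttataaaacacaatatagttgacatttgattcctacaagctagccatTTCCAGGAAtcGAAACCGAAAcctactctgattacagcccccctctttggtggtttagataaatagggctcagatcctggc
Both motifs occur once in each, with the gamma-activated site first. It begins 88 bases before the start of Tgtp1 and 81 before that of Tgtp2, and the response element begins at 77 and 70. Of 32851 promoters of the same length, 2.98% hold the response element, 7.02% the gamma-activated site and 0.332% both. A match describes letters and shows no binding.

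Other interferon-inducible transcripts lay partly on the same side. Over 16 interferon-inducible GTPases, a list drawn up after the Tgtp values were seen, 12 lay below 0, 3 had every KO library below every WT library (19%, against 3.27% of all genes), and the median log2 difference was -0.21. Of these 3, the Tgtp pair had been seen before the list was drawn up. The third, beside the Tgtp pair, was Irgm1, an immunity-related GTPase, at 3578, 2661 and 3791 normalized counts in the WT libraries and 1941, 2588 and 2554 in KO. KO tumor 2 and 3 come within reach of WT tumor 3. Igtp, of the same family, stood at 4477 ± 543.1 and 3246 ± 1363 (SD, n = 3), and Iigp1 at 2721 ± 2816 and 2057 ± 1003, both overlapping. The list median was 0.07 without WT tumor 4, -0.59 without WT tumor 3 and -0.49 without the 2 libraries with Xist. Of 30 interferon-stimulated genes, 21 lay below 0, with a median of -0.19. That median was -0.45 without WT tumor 3 and -0.47 without the 2 libraries with Xist. It shrank to -0.12 without WT tumor 1, -0.11 without WT tumor 4 and -0.03 with the replicate number as a block. Ifit3, which binds foreign RNA complexes, stood at 1827, 1592 and 1834 in WT and 934.9, 444.1 and 1418 in KO, whereas Oas2, an RNA sensor, stood at 42.2, 0.7 and 73.1 in WT and 152.3, 109.1 and 138.6 in KO. In both the groups were apart, in opposite directions, and over the list 2 members had KO below WT (6.7%, against 3.27%) and 1 had KO above (3.3%, against 4.17%).

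Genes of the T-cell receptor complex and its proximal signaling were mostly lower in KO, by small amounts. Of 24 tested, 4 lay above 0, against 52.6% of all genes, and 20 below, and 9 had every KO library below every WT library (38%, against 3.27% of all genes). The median log2 difference was -0.22 (0.023 over all genes), and 6 genes had an unadjusted p under 0.05, all lower (25%, against 1.11%). Earlier results of these data had shown coreceptor and receptor genes lower, so this is no independent support for a direction. The median was -0.11 without KO tumor 3 and -0.33 without WT tumor 1, and it was -0.03 without the 2 libraries with Xist.

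The members that stood apart included receptor chains, the coreceptor and the adhesion molecule Cd2. Trac, the constant region of the receptor alpha chain, stood at 18167, 21393 and 16001 normalized counts in the WT libraries and 12222, 12856 and 13185 in KO. Cd8a, a chain of the CD8 coreceptor, stood at 24756, 37954 and 27564 in WT and 22178, 18065 and 18952 in KO. Cd2, an adhesion and costimulatory molecule, stood at 11886, 19444 and 8832 in WT and 7044, 6926 and 8405 in KO. WT tumor 3 was the highest library for each. Leaving it out could not reverse groups that were apart, but the log2 differences shrank to -0.42, -0.41 and -0.46. With all libraries they were -0.53 (SE 0.16), -0.59 (SE 0.19) and -0.77 (SE 0.28), with limma adjusted p = 0.983 for all 3. Cd3g, a signaling chain of the receptor, stood at 21714 ± 5337 in WT and 15596 ± 1059 in KO tumor (SD, n = 3). Cd3e, Cd8b1, Fyb and Sh2d2a also had KO below WT. Among kinases and adaptors, Lck, Zap70, Lat, Lcp2 and Plcg1 overlapped, and Fyn, Vav1, Ptpn22 and Cd5 lay above 0.

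**Figure D3:**
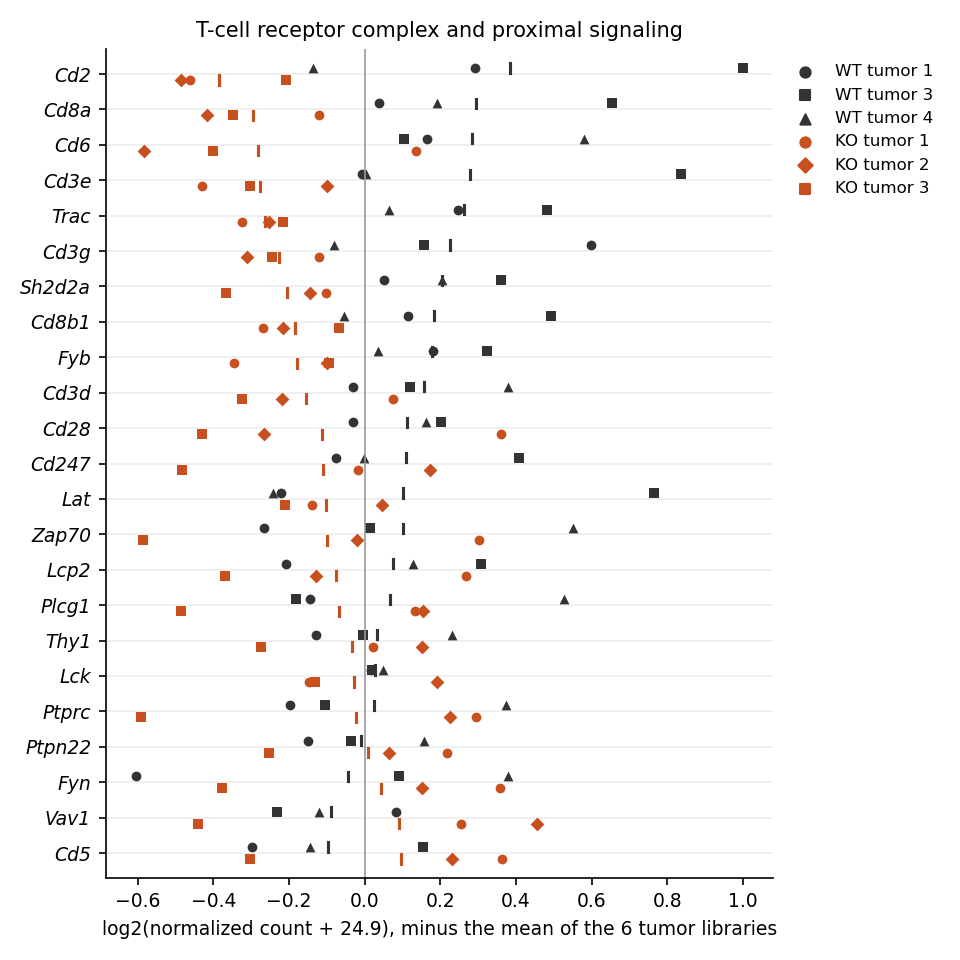
Genes of the receptor complex and proximal signaling, ordered by log2 difference, with 1 symbol per tumor library on a log2 scale centred on the mean of the 6 libraries; short lines mark group means. In the rows from Cd2 to Fyb, KO symbols sit left of WT symbols except for KO tumor 1 in Cd6, and in the lower rows the groups mix.

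The sorted cells carried the transcripts of CD8 T cells in every tumor library, and most genes of T-cell state overlapped between genotypes. Cxcr6, a chemokine receptor of tumor-resident T cells, was the panel gene with the clearest separation. It stood at 23939, 20221 and 19165 normalized counts in the WT libraries and 15578, 11096 and 13214 in KO, all KO libraries lower, with a log2 difference of -0.67 (SE 0.18, 95% interval -1.08 to -0.26, limma adjusted p = 0.983). Eomes, a T-box factor of effector and memory cells, stood at 270.6, 494.7 and 108.0 in WT and at 508.5, 676.3 and 593.0 in KO. The WT libraries were spread widely, with WT tumor 3 just under KO tumor 1, and the difference of 1.17 (SE 0.47) was 0.65 without WT tumor 4. Eomes is also on the NK-cell marker list, and the part of other cells was not tested. Prf1, which encodes perforin, stood at 2534 ± 1225 and 3648 ± 1185 (SD, n = 3), and Tnf at 550.4 ± 205.7 and 488.6 ± 153.7. Of the inhibitory receptors, Lag3 stood at 454.2 ± 211.9 and 295.2 ± 139.1, Tigit at 1877 ± 478.5 and 1260 ± 207.6, and Ctla4 at 7537 ± 1960 and 7956 ± 2737. Prf1, Tnf, Lag3, Tigit and Ctla4 all overlapped.

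Among homing and memory genes, WT tumor 1 often stood apart from the other libraries. Slamf6, a marker of progenitor-like exhausted cells, stood at 73.2, 1278 and 1472 normalized counts in the WT libraries and 893.0, 669.9 and 553.1 in KO. S1pr1, the receptor for exit from tissue, stood at 26.8, 664.7 and 462.9 in WT and 368.5, 433.9 and 873.4 in KO. In both genes WT tumor 1 was far below all others and the KO libraries lay among the remaining WT values. Cd69, a retention molecule that opposes S1pr1, stood at 16496 ± 8872 and 9496 ± 1676 (SD, n = 3), Itgae at 92.4 ± 57.0 and 46.2 ± 28.4, Cd44 at 8012 ± 2355 and 9155 ± 1845, and Prdm1 at 574.4 ± 134.2 and 693.1 ± 134.3, all overlapping. Of 19 naive, memory and stem-like genes, 13 lay above 0, with a median of 0.32 that became -0.24 without WT tumor 1. Il6ra, a cytokine receptor chain of naive cells, stood at 86.6, 144.1 and 99.6 in WT and 195.2, 392.1 and 234.3 in KO. Myb, a factor of stem-like cells, stood at 816.3 ± 231.6 and 1371 ± 418.8 (SD, n = 3). For Il6ra and Myb every KO library lay above WT, as it did for 3 of the 19 genes (16%, against 4.17% of all).

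Effector and inhibitory lists went both ways. Of 30 effector and cytotoxic genes, 19 lay above 0 and the median was 0.18 (-0.02 without WT tumor 1). Nkg7, a granule membrane protein needed for degranulation, stood at 132080, 163070 and 113640 normalized counts in the WT libraries and 100800, 78799 and 104750 in KO, all KO libraries lower. Fasl and Ctsw also had KO below WT (3 of 30, 10%, against 3.27%), and Gzmc had KO above (3.3%, against 4.17%). Of 25 inhibitory receptor and exhaustion genes, 17 lay below 0, with a median of -0.25, a range of -0.37 to -0.12 with any 1 library left out, and values of -0.08 with sample quality weights and -0.04 with the replicate number as a block. Batf, an AP-1 factor of activated and exhausted cells, stood at 1155, 2538 and 1143 in WT and 915.8, 652.1 and 780.5 in KO. Nfatc1, a calcium-dependent factor induced by the receptor, stood at 2816, 3514 and 3289 in WT and 2111, 2052 and 2728 in KO. Both had KO below WT, as did 3 of the 25 (12%, against 3.27%), and the difference of Batf was -0.93 (SE 0.34) with and -0.55 without WT tumor 3, its highest library.

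Transcripts of the pathway that TrIP acts on lay on both sides of 0. Of 28 genes of the PI3K, AKT and mTOR pathway, 15 lay above 0, 0 had an unadjusted p under 0.05 (2.89% of all genes did), and the members ran from -0.59 to 0.55. The median was 0.02, as over all genes, but -0.14 without WT tumor 3 and 0.16 without WT tumor 4. Pik3cd, the catalytic subunit that T cells use, stood at 1492 ± 207.4 normalized counts in the WT libraries and 1405 ± 389.6 in KO tumor (SD, n = 3), and Pik3r1, the regulatory subunit, at 1690 ± 739.5 and 2125 ± 391.9. Rheb, the activator of mTOR, was the single member with KO below WT (3.6%, against 3.27%). Its values were 5010, 5436 and 4278 in WT and 4161, 3750 and 4210 in KO, and WT tumor 4 nearly touched KO tumor 3. Of 19 FOXO targets and quiescence genes, 13 lay above 0, 0 separated (4.17% and 3.27% of all genes did, above and below) and the median was 0.23 (0.04 without WT tumor 1). Of 30 early genes that receptor signals induce, 15 lay on each side, with a median of 0.00 (0.003 before rounding). That median was -0.27 without WT tumor 1, 0.23 without WT tumor 4, 0.28 without the 2 libraries with Xist, 0.20 with the replicate number as a block and 0.34 with sample quality weights. Nr4a1 stood at 3426 ± 1301 and 3269 ± 491.4, Egr1 at 3388 ± 808.8 and 3440 ± 149.2, and Irf4 at 2528 ± 803.4 and 2121 ± 623.6. The 95% interval of the log2 difference was -0.43 to 0.52 for Egr1 and -0.72 to 0.73 for Nr4a1, which leaves room for differences in either direction.

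Genes of sterol and fatty acid synthesis, which SREBP factors control, were mostly higher in KO tumor. Of 31, 27 lay above 0, 6 had every KO library above every WT library (19%, against 4.17% of all genes), and the median log2 difference was 0.42. That this list lay high in tumor was known from earlier results of these data. Cyp51, the sterol demethylase, stood at 1463, 1158 and 807.0 normalized counts in the WT libraries and 2039, 2187 and 2058 in KO, with the KO libraries close together and all above WT (log2 0.90, SE 0.24, limma adjusted p = 0.983). Elovl6, a fatty acid elongase, stood at 175.2, 162.8 and 123.9 in WT and 232.6, 323.5 and 752.8 in KO. Its difference of 1.21 (SE 0.43) was 0.76 without KO tumor 3, the highest library. Fasn, the fatty acid synthase, stood at 479.9 ± 82.6 and 693.8 ± 62.9 (SD, n = 3), and Insig1, a feedback regulator of SREBP, at 914.8 ± 85.7 and 1324 ± 269.6. Hmgcs1 also had KO above WT. Srebf2, which encodes the sterol-responsive factor itself, stood at 687.1 ± 159.6 and 710.1 ± 51.8, and overlapped. The list median was 0.27 without KO tumor 3, 0.49 without KO tumor 2 and 0.22 without the 2 libraries with Xist.

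In TDLN the same list had a median of -0.32, with 4 of 31 genes above 0. Between tissues the genotype difference of Cyp51 differed by 1.44 on the log2 scale (SE 0.39, unadjusted p = 0.00296, limma adjusted p = 1). That of Elovl6 differed by 1.56 (SE 0.61) and that of Sqle by 1.20 (SE 0.45), each with limma adjusted p = 1. No gene of any kind was called for such a difference: limma called 0 of 16426 (0%), and 482 had an unadjusted p under 0.05 (2.93%). In TDLN itself 0 genes were called (0%) and 397 had an unadjusted p under 0.05 (2.42%). Across the 16426 genes, which are not independent, the genotype differences of tumor and TDLN had a Pearson r of 0.051 and a Spearman rho of 0.08.

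Lipid mediator and mitochondrial genes included further members with KO above WT. Of 13 tested arachidonic acid genes, 9 lay above 0 and 3 separated (23%, against 4.17%), namely Alox8, Pla2g4a and Lta4h. This share includes Alox8, the gene of smallest p, and the list was chosen with earlier results of these data known. It is therefore no independent support. The list median was 0.30, and it was 0.07 without KO tumor 2 and 0.08 with the replicate number as a block. Pla2g4a, the phospholipase that frees arachidonic acid from membranes, stood at 86.6, 48.8 and 93.2 normalized counts in the WT libraries and 191.5, 217.0 and 180.2 in KO, all KO libraries well above all WT libraries. Its TDLN means were 0 in both genotypes. Alox5ap, which hands arachidonic acid to the 5-lipoxygenase, stood at 530.8 ± 126.7 and 893.5 ± 334.5 (SD, n = 3) and overlapped. Macrophages also express Pla2g4a and Alox5ap, and their part was not tested. The 13 mitochondrially encoded protein genes had 11 above 0, 4 with KO above WT (31%, against 4.17%) and a median of 0.25. mt-Atp8 stood at 38702, 25847 and 42843 in WT and 58480, 44053 and 47507 in KO, with WT tumor 4 close to KO tumor 2. The summed share of the 13 genes was 5.75% to 7.09% of all values in WT and 7.20% to 7.80% in KO. In TDLN their median was 0.27. The 31 nuclear-encoded genes of the respiratory chain had 15 above 0 and a median of -0.01. Glycolysis and hypoxia genes had 16 of 25 above 0 and a median of 0.17. That median was 0.02 without KO tumor 2 and 0.01 with the replicate number as a block. Slc2a1, the glucose transporter, stood at 563.6, 700.5 and 703.3 in WT and 847.4, 998.5 and 838.7 in KO, all KO libraries higher. Such a separation was seen in 2 of the 25 genes (8.0%, against 4.17% of all genes).

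Proliferation genes leaned higher in KO, with a wide spread among the WT libraries. Of 30 G2 and mitosis genes, 29 lay above 0 with a median of 0.43, yet 0 had an unadjusted p under 0.05 (1.78% of all genes were higher at that p) and 0 had KO above WT (4.17% of all). Ccnb1, the mitotic cyclin, stood at 1118, 105.4 and 632.4 normalized counts in the WT libraries and 684.1, 1023 and 1418 in KO. Top2a, a topoisomerase of dividing cells, stood at 5730, 1214 and 3336 in WT and 4364, 5710 and 4381 in KO. WT tumor 1 was at or above the KO libraries in Top2a while WT tumor 3 was far below them. The list median was -0.02 without WT tumor 3, 0.97 without WT tumor 1, -0.11 without the 2 libraries with Xist and 0.01 with sample quality weights. Of 35 genes of DNA replication and S phase, 29 lay above 0 with a median of 0.25. That median was 0.12 without WT tumor 3. With the replicate number as a block it was 0.03, and 21 of the 35 lay above 0. E2f1, a driver of S-phase entry, stood at 60.8, 88.2 and 50.8 in WT and 206.1, 137.0 and 231.5 in KO, and Mcm7, a helicase subunit, at 997.3, 802.6 and 868.8 in WT and at 1191, 1602 and 1109 in KO. These were the 2 members with KO above WT (5.7%, against 4.17%), and Chaf1a had KO below (2.9%, against 3.27%).

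The remaining lists are given by counts and medians. Heat shock and dissociation genes had 16 of 21 above 0 and a median of 0.26. Their median was 0.13 without KO tumor 2 and 0.04 with the replicate number as a block. ATF4 and amino acid response genes had 16 of 22 above 0 and a median of 0.13 (-0.01 without the 2 libraries with Xist). Glucocorticoid response genes had 8 of 11 and 0.25 (0.05 without WT tumor 1). Cytosolic ribosomal proteins had 26 of 39 above 0 and a median of 0.08. Cholesterol efflux and LXR targets had 6 of 9 and 0.18 (-0.10 without KO tumor 2). The BCL2 family had 6 of 13 and -0.04 (0.22 without the 2 libraries with Xist). Tissue residency genes had 6 of 17 above 0 with a median of -0.03, which was -0.27 without KO tumor 1. Chemokine ligands and receptors had 11 of 17 above 0 with a median of 0.23, which was -0.15 without WT tumor 1, 0.79 without WT tumor 3 and 0.83 without the 2 libraries with Xist. NK-type receptors that CD8 T cells can carry had 9 of 14 above 0, with a median of 0.41 that was -0.08 without KO tumor 1 and 0.83 without WT tumor 1. Klra5 was the single one of them with KO above WT (7.1%, against 4.17%).

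**Figure D4:**
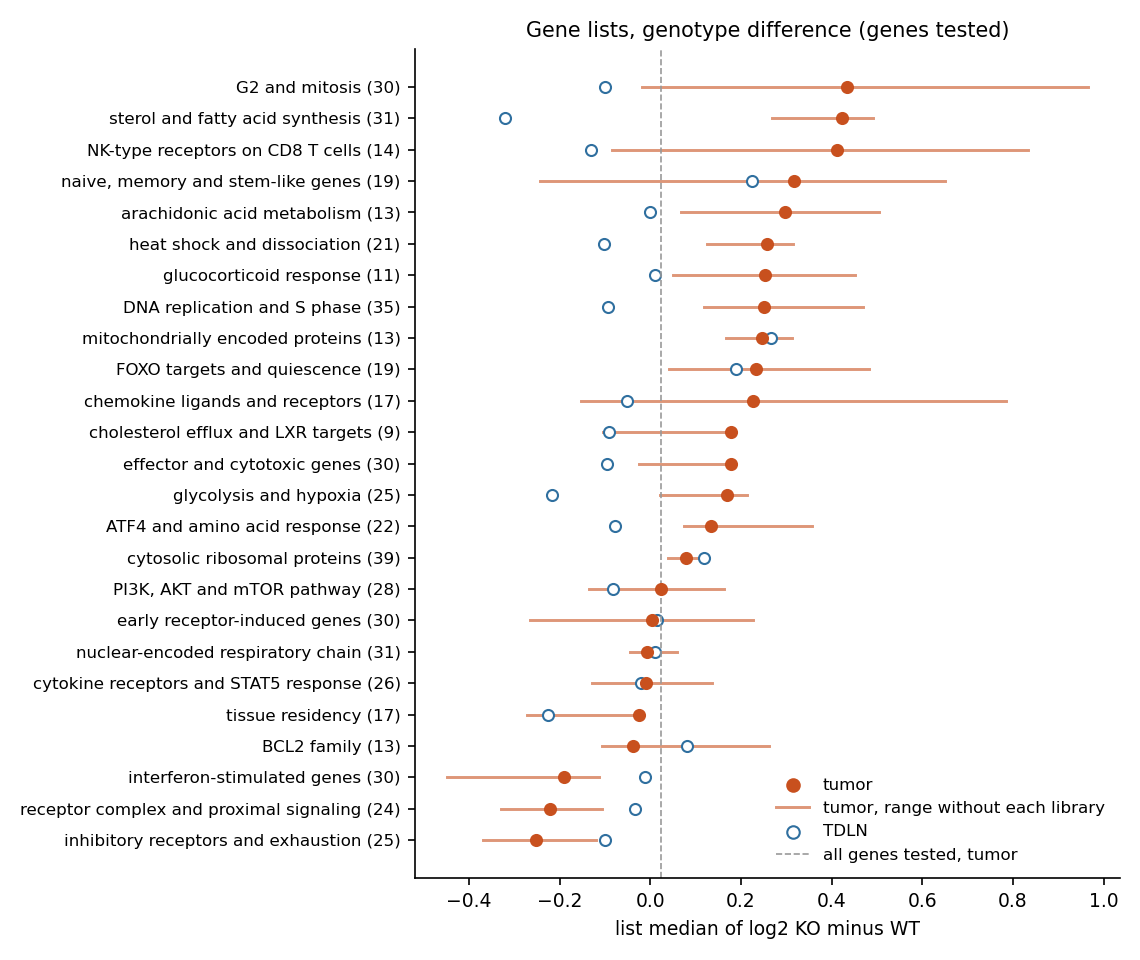
Median log2 difference, KO minus WT, of 25 gene lists in tumor (filled) and TDLN (open), with the number of genes tested in brackets; bars span the tumor medians with each tumor library left out in turn, and the dashed line is the median of all genes in tumor. Sterol and fatty acid synthesis lies at 0.42 in tumor and -0.32 in TDLN, and the bar of G2 and mitosis reaches from -0.02 to 0.97.

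Other genes lower in KO came from varied processes. Strn, the scaffold protein striatin, stood at 1526, 1298 and 1283 normalized counts in the WT libraries and 853.7, 836.1 and 794.4 in KO, with no overlap and a log2 difference of -0.70 (SE 0.19, 95% interval -1.15 to -0.26, limma adjusted p = 0.983). Tor2a, a torsin ATPase of the endoplasmic reticulum, stood at 648.0, 810.0 and 523.2 in WT and 257.1, 256.6 and 375.2 in KO. Evi2b, a membrane protein of blood cells, stood at 3802, 4341 and 3121 in WT and 2420, 2529 and 2210 in KO. All 3 had their highest KO library well below the lowest WT library, and their WT and KO means in TDLN were 2633 and 2571 for Strn, 760.1 and 644.6 for Tor2a and 4701 and 4732 for Evi2b. The difference between tissues had limma adjusted p = 1 for each. Low genes with KO below WT followed. Mc5r, a melanocortin receptor, stood at 35.0, 79.6 and 125 in WT and at 0.9, 11.4 and 13.9 in KO. Nipal1, a magnesium transporter, stood at 160.3 ± 80.7 and 34.1 ± 16.0 (SD, n = 3), and Kcnk7, a potassium channel subunit, at 157.2 ± 77.9 and 41.6 ± 19.6. Tmem132c stood at 33 to 75.2 in WT and at 0 to 1.8 in KO. Platr27, a noncoding transcript, stood at 102, 86.8 and 15.9 in WT and is listed at 0 in all KO libraries. Rnf113a1 stood at 91.7 to 164.9 in WT and at 0.9, 1.3 and 69.3 in KO, and Fam124b at 42.2 to 240.9 and 1.3 to 21.

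Markers of other cells were present at low shares in every tumor library and were higher in some KO libraries. All 19 tested macrophage and monocyte markers lay above 0, with a median of 0.70, and their summed share of all values was 0.0690% to 0.160% in WT and 0.130% to 0.296% in KO. KO tumor 2 was the highest library and WT tumor 4 the lowest, and the median was 0.21 without KO tumor 2 and 0.91 without the 2 libraries with Xist. Fcgr1, an Fc receptor of macrophages, was the 1 member with KO above WT (5.3%, against 4.17%), at 250.4, 164.9 and 159.9 normalized counts in the WT libraries and 357.6, 638.2 and 285.6 in KO. Of 11 tested NK-cell markers, 10 lay above 0 with a median of 0.85, and 1 had KO above WT (9.1%, against 4.17%). The sum over the 13 markers found was 0.0422% to 0.0490% in WT and 0.0653% to 0.107% in KO, without overlap. The median log2 value of the tested markers, each centred on its tumor mean, was 0.379, 0.662 and -0.335 in KO tumor 1, 2 and 3. In WT tumor 1, 3 and 4 that median was -0.154, -0.302 and -0.411, so by this measure KO tumor 3 was not above WT. CD8 T cells also express several of the NK-cell markers, Eomes and Gzma among them. The 11 neutrophil markers found, 6 of them tested, summed to 0.00338% to 0.00766% in WT and 0.00786% to 0.0310% in KO. All sums of markers here cover every marker found in the table, while medians cover the tested ones. Stromal and endothelial markers (16 tested) had a median of 0.35 that was -0.48 without KO tumor 3, 1.12 without WT tumor 4, -0.71 without the 2 libraries with Xist and 1.45 with the replicate number as a block. They summed to 0.0321% to 0.181% in WT and 0.0470% to 0.129% in KO, and red blood cell genes (4 tested, median 1.26, and -0.65 without KO tumor 2) to at most 0.00465% except in KO tumor 2, at 0.0440%. Dendritic cell and class II genes (12 tested, median -0.01, and 0.42 without the 2 libraries with Xist) summed to 0.0301% to 0.0846% in WT and 0.0362% to 0.0925% in KO, and CD4 T-cell and Treg markers (7 tested, median 0.17) to 0.0144% to 0.0533% and 0.0258% to 0.0466%. B-cell markers had 4 tested members, all below 0, with a median of -0.62 (-0.30 without WT tumor 3), gamma-delta T-cell markers 2, with a median of -0.82, and tumor epithelial markers 4, with a median of -0.16. Of the markers found in the table, 0 were at 0 in all tumor libraries. The part of such RNA in the genotype differences given here was not tested.

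**Figure D5:**
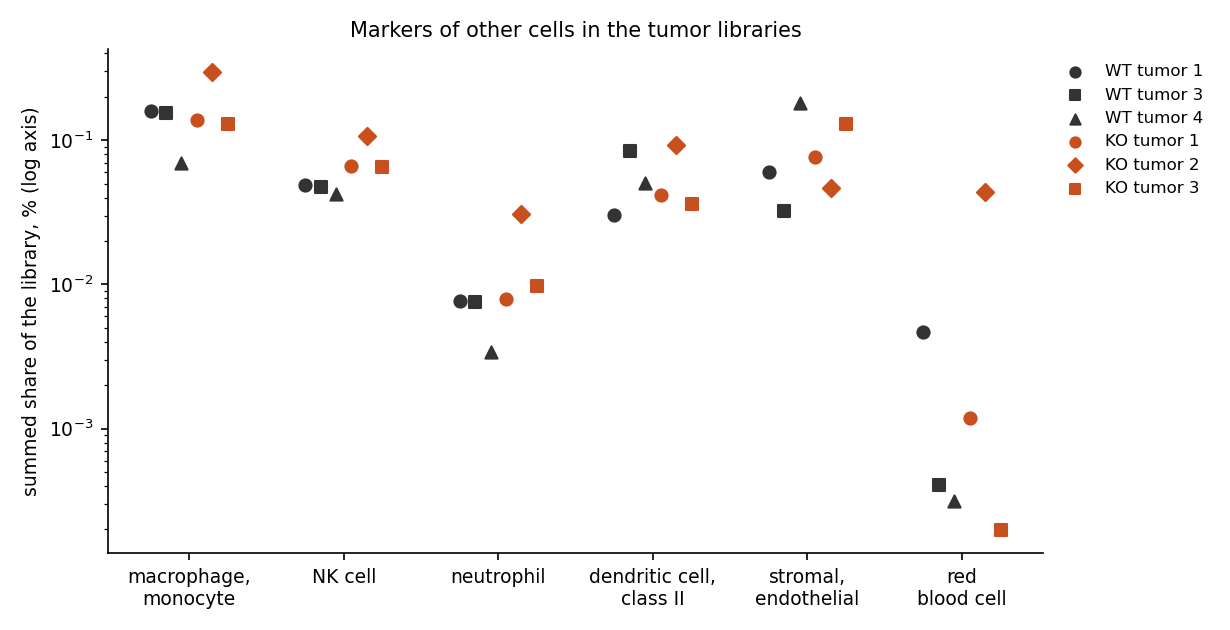
Summed share of all normalized counts taken by marker lists of other cells, in percent on a log axis, 1 symbol per tumor library. KO tumor 2 is the highest library for macrophage (0.296%), NK-cell, neutrophil, dendritic and red blood cell lists, and stromal markers are highest in WT tumor 4 (0.181%).

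Classes of RNA were not evenly placed either. Processed pseudogenes, 2752 of the tested genes, had 34.8% above 0 and a median of -0.11, against a median of 0.05 over 11610 protein-coding genes. They held 14.4% to 17.3% of all values in KO and 14.8% to 18.3% in WT. Small nuclear RNAs had 152 of 157 above 0 with a median of 0.32, and ribosomal RNA entries 51 of 52 with a median of 0.78. Yet every KO library lay above every WT library in only 1 of the 157 (0.64%) and 2 of the 52 (3.8%), against 4.17% of all genes. Small nuclear RNAs summed to 0.0234%, 0.0496% and 0.128% in WT and 0.0722%, 0.0643% and 0.102% in KO, with WT tumor 4 the highest library. The ribosomal RNA entries summed to 0.00791%, 0.00837% and 0.0262% in WT and 0.0190%, 0.0216% and 0.0349% in KO, so the groups overlapped. The library was made by selecting polyA RNA, which neither class carries as its mature form.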

How the data were processed

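The values used were the signal columns of the authors' deposited table, which per the file headers are normalized counts from Partek, 1 column per library. Each is an estimated count divided by a size factor of its library: between 88.2% and 89.6% of values under 50 reads in tumor libraries are whole multiples of 1 read within 0.01 reads, and the rest are fractions, so no count model was fitted. The submitters' processing notes name 2 builds, GRCm38 and GRCm39, without roles. No source used here names the aligner or quantifier. Counting error has no interval here, since the values are not whole reads.

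The 6 tumor libraries were fitted with limma 3.58.1 (R 4.3.3) on log2(value + 24.9 normalized counts), with an intensity trend, genes of mean at least 1 CPM, 4 residual and 3.99 prior degrees of freedom, two-sided tests and Benjamini-Hochberg adjustment. TDLN libraries were kept out of this fit because their spread was smaller (median residual SD 0.262, against 0.426 in tumor). TDLN values come from a fit of the 6 TDLN libraries and the difference between tissues from a fit of all 12. That fit treats tumor and TDLN libraries as independent, although their numbers match within each genotype and whether a number is 1 mouse is not stated; a fit with genotype and number as a block was added. Folds are on the log2(value + pseudocount) scale. WT and KO libraries were not paired: only numbers 1 and 3 are shared by both genotypes, no label says what a number marks, and the correlation of same-numbered deviations was -0.147 and 0.075.

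Named genes were Pik3ip1, the 12 of smallest p in each direction among genes whose groups do not overlap, up to 6 with the biggest differences at an unadjusted p under 0.05, a panel of T-cell genes and the 3 members of smallest p of each list; predicted genes, pseudogenes and receptor segments were skipped, and the text gives a selection. Other list members are given to show a list's members by role. Of 684 symbols in 37 lists, 670 were found, 5 through another symbol. The comparison, lists and settings were chosen with earlier results of these data known. The lists of interferon-inducible GTPases and of iron genes were added after values were seen. Lists carry counts and medians only, with no test of the list. Of 20 alternatives for the tumor comparison, 18 were planned and the 2 on libraries with Xist were added. Scripts were tested on simulated data. Some members of the lists are counted but not reported by name here.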

Additional observations from a re-analysis of the deposited data

How the results depend on the processing

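By limma, 0 genes were called under each of the 20 alternatives; the smallest adjusted p was 0.307 with all 12 libraries in one fit, 0.702 without WT tumor 4 and 0.806 to 1 in the others. Each of 59 genes kept the sign of its log2 difference in all 1102 alternative values. Many of them were named because their groups were separate or their p was small in these same libraries. Their sign was therefore largely fixed in advance, and only the size of the difference could move much. The count of genes at an unadjusted p under 0.05 was 293 higher and 182 lower in KO. It was 483 and 297 with no filter, out of more genes tested. With a filter of 5 CPM it was 167 and 118, out of fewer genes tested. The filter counts alone therefore do not show a changed share of genes. With the same genes tested, the count was 666 and 417 with all 12 libraries, and 453 and 356 with sample quality weights. The lower count was 287 without the 2 libraries with Xist and 430 with them as a factor. Without 1 library the counts were 206 to 598 higher (lowest without KO tumor 2, highest without WT tumor 1) and 108 to 450 lower (lowest without KO tumor 2, highest without WT tumor 4). Genes with separate groups, 685 above and 537 below, numbered 1156 and 896 with no filter and 433 above with a filter of 5 CPM. Here too the filter changed the number of genes tested. Without 1 library they numbered 1168 to 2132 above and 957 to 1746 below. Without the 2 libraries with Xist they numbered 2519 and 2664. In fits without libraries, fewer libraries separate by construction. With the replicate number as a replicate block, 0 genes were called, and 430 were higher and 372 lower at an unadjusted p under 0.05; with 2 shared numbers and correlations of -0.147 and 0.075, a pairing was not established. Under that block the medians of red blood cell genes (-1.20), macrophage markers (-0.12), effector genes (-0.04) and LXR targets (-0.07) lay below 0. That of dendritic cell and class II genes was -0.21, and that of nuclear RNAs was 0.29. In the fit of all tumor libraries without a block, the nuclear RNA median was -0.17. With 1 library left out it ran from -0.29 (without WT tumor 1) to 0.18 (without WT tumor 4). With genotype and number as a replicate block across tissues, limma called 0 genes for the difference between tissues (smallest adjusted p 0.694; 287 higher and 214 lower at an unadjusted p under 0.05, against 319 and 163). In the block on the tumor libraries alone, the numbers of KO tumor 2 and WT tumor 4 each occur in 1 genotype. These libraries therefore do not enter that difference, which rests on the 2 shared numbers. Other causes of these shifts were not tested. At 18.3 M to 36.9 M reads, genes near the filter rest on few reads.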

Other observations

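Iron genes, a list drawn up after Tfrc was seen, had 7 of 11 members above 0 and a median log2 difference of 0.08. Beside Tfrc, Steap3, an iron reductase, had every KO library above every WT library (2 of 11, 18%, against 4.17% of all genes), at 27.8, 0.7 and 12.7 normalized counts in the WT libraries and 33.7, 66.0 and 38.8 in KO. Hmox1, which frees iron from heme, stood at 558.5, 72.4 and 47.7 in WT and 571.9, 1037 and 335.5 in KO, so WT tumor 1 lay among the KO libraries. Fth1, the ferritin heavy chain, stood at 42418 ± 12126 and 37292 ± 5048 (SD, n = 3) and overlapped.

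Cytokine receptors were divided. Of 26, 13 lay on each side. Il2rg, the chain shared by several interleukin receptors, stood at 16420, 33750 and 16738 normalized counts in the WT libraries and 13795, 11295 and 15464 in KO. Ifngr2, a chain of the interferon gamma receptor, stood at 199.9, 228.7 and 176.9 in WT and 295.5, 406.0 and 389.6 in KO, and Tgfbr1 at 519.9 ± 103.4 and 724.8 ± 54.3 (SD, n = 3). Every KO library lay below WT for Il2rg (3.8% of the list, against 3.27% of all genes) and above WT for Ifngr2 and Tgfbr1 (7.7%, against 4.17%). By limma the adjusted p was 0.983 for all 3. Neat1, a nuclear noncoding RNA, stood at 6448, 8094 and 9581 in WT and 6039, 5638 and 6291 in KO, all KO libraries lower.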
